A study of Homo sapiens with 17 samples.

Results

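The 40 genes described here encode the core machinery of macroautophagy and the receptors that bring cargo to it. They were chosen by symbol from what is known of the pathway, out of 60662 genes in the count table, by a rule that uses no measured value, although earlier results of these data were known when the list was drawn up. All 40 were found, and all 40 passed the filter on low counts in each of the 5 comparisons. By role they comprised 5 genes of the initiation kinase complex, 6 of the lipid kinase complex, 6 for membrane supply and binding of phosphatidylinositol 3-phosphate, 10 conjugation enzymes, 5 genes of the LC3 and GABARAP family, 7 receptors and 1 fusion gene.

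Macroautophagy encloses parts of the cytoplasm in a double membrane, the autophagosome, which then fuses with lysosomes so that its contents are broken down. A protein kinase complex around ULK1 starts the process, a lipid kinase complex around PIK3C3 and BECN1 marks the growing membrane, and a conjugation system fastens LC3 and GABARAP proteins to it. Receptors such as SQSTM1 bind these proteins and cargo at once. In the endometrium, the lining of the uterus, progesterone (P4) drives the changes that prepare for implantation, and P4 acts there on epithelium and stroma. RNA abundance measures none of the steps of autophagy itself, and no autophagic flux was measured in these libraries.

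RNA was sequenced from cultures of Ishikawa cells, an established line from a human endometrial adenocarcinoma that serves as a model of endometrial epithelium. The groups were 3 control cultures in medium alone and 2 cultures with the vehicle named Nap in the labels (Nap only). Another 3 vehicle control cultures had ethanol, stated as 70%, and were titled as Nap with EtOH. The last 3 cultures had Nap and P4. Each of the treated groups was treated for 24 h. A figure legend of the paper gives a lower ethanol percentage than 70%, so the share of ethanol in the medium is not clear. The labels do not spell out Nap and do not name ethanol for the P4 cultures, and the sources differ on the P4 concentration, so that none is printed here. A further 6 libraries of cultures with recombinant PSAT1, a serine synthesis enzyme, alone or with P4 could not be placed in a group, because titles and count columns exchange the names, and only their values are given. All cultures are of 1 cell line in charcoal-stripped serum, so that other epithelia and the stroma of the tissue were not sampled.

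Total counts ranged from 4999521 (vehicle control replicate 1) to 19704493 per library, with 10786880 to 14095023 in the P4 cultures. Values are counts per 1000000 scaled by TMM (CPM). Each adjusted p comes from the quasi-likelihood test of edgeR, corrected by the Benjamini-Hochberg procedure over all genes tested, and a gene was called at an adjusted p under 0.05. Control replicate 2 stood apart from the other controls, with a mitochondrial share of counts of 28.5% against 23.0% and 21.4%. Its chi-square per degree of freedom was 16.8 and 20.6 against them, where they gave 5.02 between themselves. P4 replicates 1 and 2 gave 11.9, and P4 replicate 3 gave 5.45 and 4.69 against them. The measure is made on raw counts and grows with depth, and control replicate 2 was the deepest library. Epithelial markers (7 of 7 detected) summed to 1392 to 1622 CPM in the control, 1344 to 1483 CPM in the Nap only, 1531 to 1552 CPM in the vehicle control and 1184 to 1327 CPM in the P4 cultures. With P4 over vehicle control, KRT8 (-0.70), PAX8 (-0.68), KRT19 (-0.35) and KRT18 (-0.34) were called lower, CDH1 (0.24) was called higher, and EPCAM and SOX17 were not called (log2 fold changes, edgeR). In vehicle control over control, PAX8 was called higher (0.64) and EPCAM lower (-0.23). In P4 over control PAX8 was not called (-0.05), while KRT8, KRT18 and KRT19 were again called lower and CDH1 higher. The fibroblast or stromal list of 6 genes summed to 417 to 620 CPM in the control, 417 to 611 CPM in the Nap only, 343 to 358 CPM in the vehicle control and 127 to 179 CPM in the P4 cultures, carried by COL1A2, COL3A1 and COL1A1, while DCN and PDGFRB never exceeded 2 and 6 counts. Immune and endothelial lists stayed at or under 1.85 and 1.74 CPM, with CDH5 at 0 in all 11. The 3 collagen genes did not move alike. COL1A2 was called lower in vehicle control than in control (-0.53) and lower again with P4 (-1.67), COL1A1 was lower with P4 than in vehicle control (-0.44) but higher in vehicle control than in Nap only (0.36), and COL3A1 was not called in P4 over vehicle control (-0.14), all as log2 fold changes. The part of these marker values in the results below was not tested. In bulk RNA, fewer cells of a type and less RNA per cell cannot be told apart.

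The comparison of P4 with vehicle control asked which genes differ between cultures with P4 and cultures with the ethanol vehicle. Because the labels do not name ethanol for the P4 cultures, the hormone and a difference in ethanol cannot be told apart here. P4 was not compared with Nap only. Of the 40 autophagy genes, 22 were higher and 3 were lower (edgeR's quasi-likelihood test), where 26.6% of the 16540 genes tested were higher and 26.5% were lower. The members called higher made up 55.0% of the 40 and those called lower 7.5%. The median log2 fold change was 0.37 over the members and -0.01 over all genes tested. All 7 receptors and 4 of 5 initiation kinase genes rose, while the lipid kinase genes, the conjugation enzymes and the LC3 and GABARAP family were mixed. Of the members, 4 rose with a log2 fold change above 1, where 5.34% of all genes did. Groups did not overlap for 23 members that were higher and 4 that were lower with P4, against 30.7% and 29.6% of all genes.

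**Figure D1:**
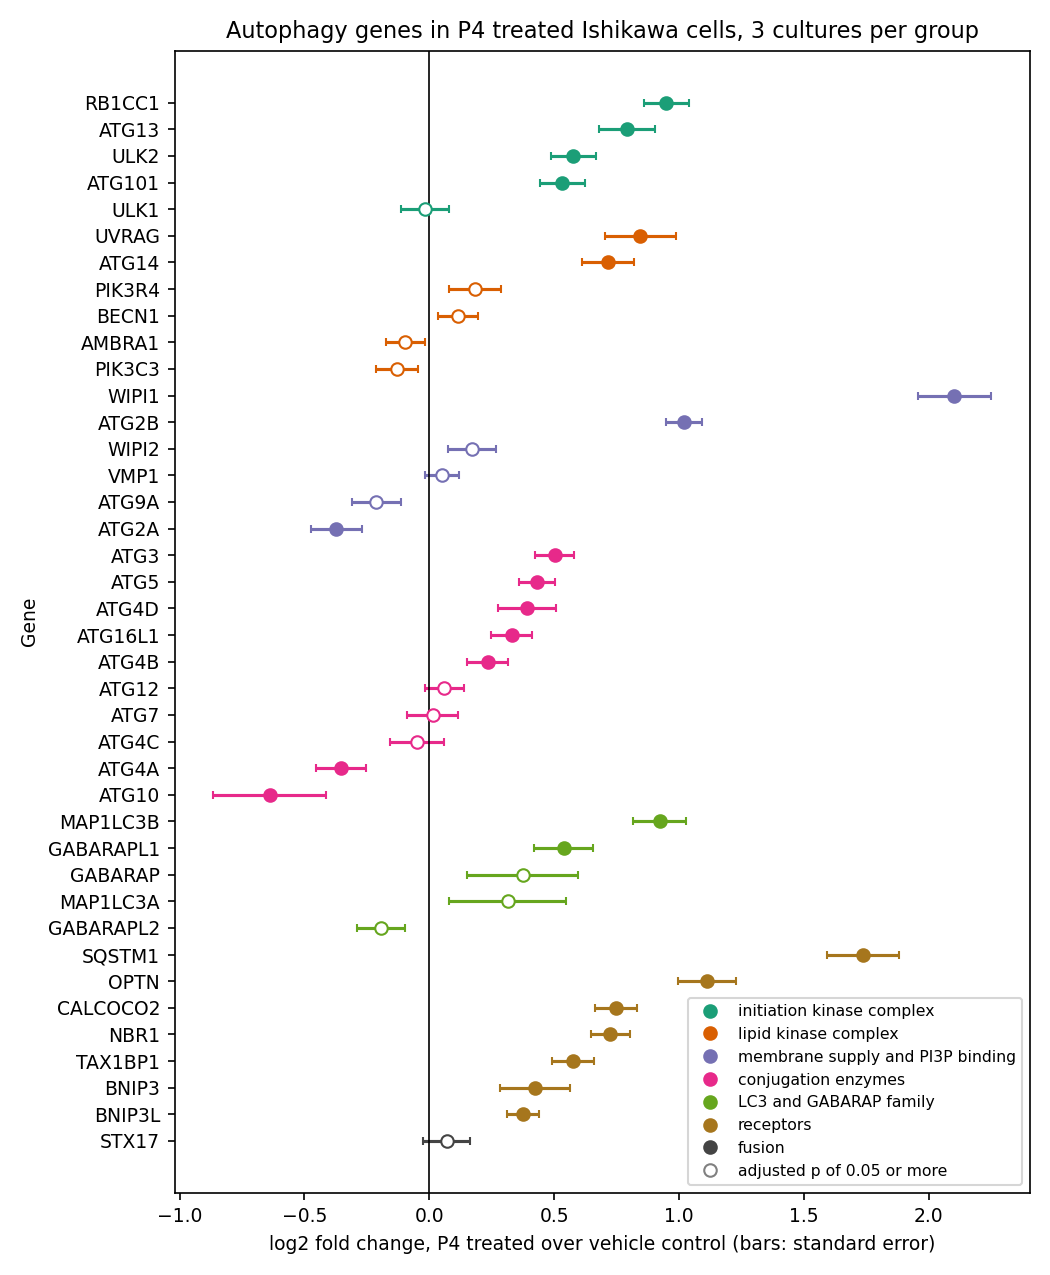
The log2 fold change of each of the 40 autophagy genes (P4 treated over vehicle control, 3 cultures per group) is plotted on the horizontal axis with its standard error as a bar, and genes are ordered and coloured by role. Filled points passed an adjusted p of 0.05, 22 on the right of 0 and 3 on the left, with WIPI1 at 2.10 and SQSTM1 at 1.73 the farthest right and ATG10 at -0.64 the farthest left.

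Among the receptors, SQSTM1 (ENSG00000161011.20, GRCh38 chr5:179806398-179838078, plus strand) encodes p62, which binds ubiquitinated cargo and LC3. It stood at 181, 188 and 188 CPM in the vehicle control cultures and at 462, 737 and 674 CPM in the P4 cultures. The groups did not overlap, the vehicle control cultures were close to each other, and P4 replicate 1 was the lowest of its group. SQSTM1 thus rose 3.33-fold, a log2 fold change of 1.73 ± 0.14 (SE, adjusted p = 7.8e-06, edgeR's quasi-likelihood test).

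OPTN (ENSG00000123240.17, GRCh38 chr10:13099449-13138308, plus strand) encodes optineurin, a receptor for ubiquitinated mitochondria and bacteria. Its values were 19.1, 24.0 and 22.7 CPM in vehicle control and 40.9, 52.3 and 52.8 CPM with P4. The groups did not overlap, and the log2 fold change was 1.11 ± 0.12 (SE, adjusted p = 8.0e-06, edgeR).

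CALCOCO2, which encodes NDP52, a receptor for ubiquitin-coated bacteria and damaged mitochondria, stood at 31.8, 31.1 and 36.1 CPM in vehicle control. With P4 it reached 54.0, 58.3 and 56.0 CPM, so that the groups did not overlap and the log2 fold change was 0.75 ± 0.08 (SE, adjusted p = 1.5e-05, edgeR). NBR1, a receptor that works with SQSTM1 on ubiquitinated aggregates, measured 75.6, 85.3 and 83.8 CPM in vehicle control and 125, 147 and 139 CPM with P4. Its lowest P4 culture was above its highest vehicle control culture, with a log2 fold change of 0.73 ± 0.08 (SE, adjusted p = 9.5e-06, edgeR).

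TAX1BP1, which brings ubiquitinated protein condensates to the machinery, had 139, 163 and 152 CPM in vehicle control and 203, 252 and 231 CPM with P4. The 2 groups were apart, and the log2 fold change was 0.58 ± 0.09 (SE, adjusted p = 0.00012, edgeR). Among the 5 receptors for ubiquitinated cargo, the log2 fold changes thus ran from 0.58 for TAX1BP1 to 1.73 for SQSTM1.

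BNIP3 and BNIP3L sit in the outer mitochondrial membrane, bind LC3 and GABARAP proteins directly, and are known as targets of hypoxia signalling. BNIP3 measured 13.0, 11.9 and 15.5 CPM in vehicle control and 19.7, 15.3 and 19.97 CPM with P4. P4 replicate 2 lay below vehicle control replicate 3, so the groups overlapped, and the log2 fold change was 0.42 ± 0.14 (SE, adjusted p = 0.023, edgeR). BNIP3L measured 92.1, 97.5 and 101 CPM in vehicle control and 124, 129 and 129 CPM with P4, apart in every culture, with a log2 fold change of 0.37 ± 0.07 (SE, adjusted p = 0.00042, edgeR). The BNIP3 call was lost in 5 of 13 alternative fits, with all 4 groups in 1 fit (adjusted p = 0.52), under upper-quartile scaling (0.066), and without P4 replicate 3 (0.0995) or vehicle control replicate 1 (0.064) or 2 (0.13). The BNIP3L call was lost only with all 4 groups in 1 fit (adjusted p = 0.16, edgeR).

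**Figure D2:**
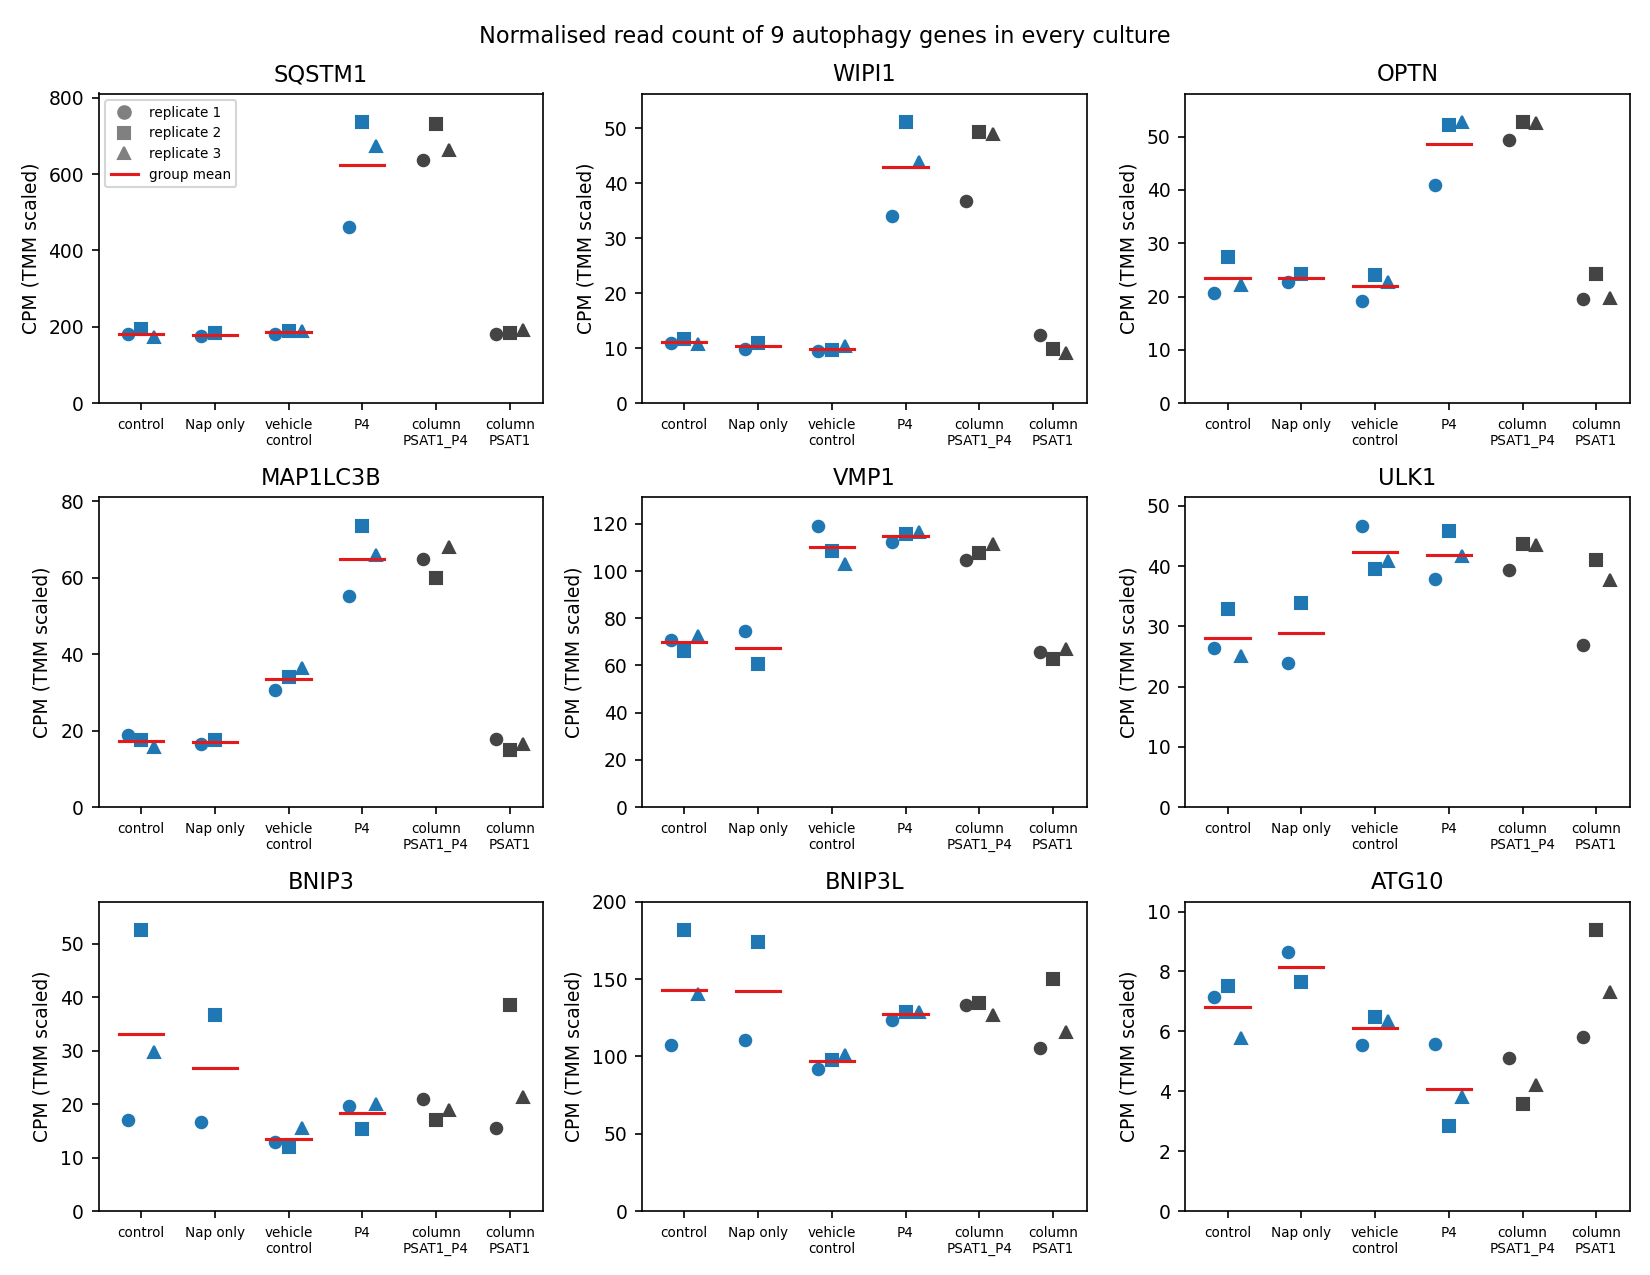
The CPM (TMM scaled, linear axis from 0) of 9 autophagy genes is plotted for each of the 17 libraries, with 1 symbol per replicate number, the mean of each labelled group as a line, and the libraries of the count columns PSAT1_P4 and PSAT1 in grey without a mean. SQSTM1, WIPI1 and OPTN were high in the P4 cultures alone among the labelled groups, VMP1 and ULK1 were high in vehicle control and P4, MAP1LC3B was higher in vehicle control and higher again in P4, and BNIP3 and BNIP3L were highest in replicate 2 of control.

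The initiation kinase complex receives signals from nutrient and energy sensors. RB1CC1 encodes FIP200, its large scaffold. It measured 79.0, 88.0 and 89.0 CPM in vehicle control and 145, 186 and 169 CPM with P4, with no overlap and a log2 fold change of 0.95 ± 0.09 (SE, adjusted p = 3.7e-06, edgeR). ATG13, the adaptor between kinase and scaffold, measured 39.6, 43.7 and 44.5 CPM against 60.2, 82.7 and 81.6 CPM, a log2 fold change of 0.79 ± 0.11 (SE, adjusted p = 8.7e-05, edgeR). For both, P4 replicate 1 was the lowest of the P4 cultures and still above every vehicle control culture.

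The related kinase ULK2 stood at 27.8, 28.4 and 27.3 CPM in vehicle control and 42.6, 38.3 and 44.7 CPM with P4 (log2 fold change 0.58 ± 0.09 SE, adjusted p = 0.00017, edgeR). ATG101, which stabilises ATG13, stood at 44.4, 42.6 and 40.8 CPM and at 53.9, 67.7 and 64.0 CPM (log2 fold change 0.53 ± 0.09 SE, adjusted p = 0.00038, edgeR). Neither gene overlapped between the groups. ULK1, the kinase that gives the complex its name, was the 1 member of the complex not called, with 46.7, 39.5 and 40.8 CPM in vehicle control, 37.8, 45.8 and 41.7 CPM with P4 and a log2 fold change of -0.02 ± 0.09 (SE, adjusted p = 0.89, edgeR).

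Of the 6 lipid kinase genes, the 2 that rose were UVRAG and ATG14, which encode the alternative subunits that separate the complexes of PIK3C3. UVRAG, the subunit of the endosomal form, measured 15.3, 17.6 and 18.9 CPM in vehicle control and 24.6, 36.8 and 33.8 CPM with P4 (log2 fold change 0.84 ± 0.14 SE, adjusted p = 0.00031, edgeR). ATG14, the subunit of the form that starts autophagosomes, measured 30.2, 26.9 and 28.0 CPM and 39.6, 50.3 and 49.9 CPM (log2 fold change 0.72 ± 0.10 SE, adjusted p = 0.00010, edgeR). The groups did not overlap for either gene. The catalytic subunit PIK3C3, the shared subunits PIK3R4 and BECN1, and the activator AMBRA1 were not called, with log2 fold changes from -0.13 (PIK3C3) to 0.18 (PIK3R4).

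The largest change among the 40 belonged to WIPI1 (ENSG00000070540.13, GRCh38 chr17:68420948-68457513, minus strand), which encodes a protein that binds phosphatidylinositol 3-phosphate on the forming membrane. WIPI1 measured 9.38, 9.72 and 10.5 CPM in vehicle control and 34.0, 51.2 and 43.8 CPM with P4. The groups were apart, and P4 replicate 1 was again the lowest P4 culture. The rise was 4.29-fold, a log2 fold change of 2.10 ± 0.15 (SE, adjusted p = 3.1e-07, edgeR's quasi-likelihood test). Its close relative WIPI2, which recruits ATG16L1, was not called (0.17 ± 0.10 SE on the log2 scale, adjusted p = 0.15, edgeR).

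The lipid transfer genes ATG2A and ATG2B, which encode related proteins that move lipids into the growing membrane, went opposite ways. ATG2B (ENSG00000066739.12, GRCh38 chr14:96279202-96363870, minus strand) stood at 107, 112 and 109 CPM in vehicle control and at 227, 239 and 206 CPM with P4, a log2 fold change of 1.02 ± 0.07 (SE, adjusted p = 3.2e-07, edgeR). ATG2A stood at 27.0, 27.4 and 23.3 CPM and at 21.2, 19.8 and 19.4 CPM, a log2 fold change of -0.37 ± 0.10 (SE, adjusted p = 0.0086, edgeR). For both genes the groups were apart, but the ATG2A call was lost without vehicle control replicate 2. The scramblase ATG9A was not called at -0.21 ± 0.10 (log2 fold change, SE), although its P4 cultures lay below every vehicle control culture. VMP1, the scramblase of the endoplasmic reticulum, was not called at 0.05 ± 0.07.

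Of the 10 conjugation enzymes, which attach LC3 and GABARAP proteins to lipid and release them, 5 rose, 2 fell and 3 were not called. ATG3, the enzyme that transfers LC3 to lipid, measured 52.6, 50.9 and 50.3 CPM in vehicle control and 71.4, 79.1 and 69.0 CPM with P4, with no overlap (log2 fold change 0.50 ± 0.08 SE, adjusted p = 0.00016, edgeR). The others that rose were ATG5 (0.43) and ATG16L1 (0.33), parts of the complex that sets where LC3 is attached, and the LC3 proteases ATG4D (0.39) and ATG4B (0.23), all as log2 fold changes. The protease ATG4A fell by 0.35 on the log2 scale, whereas ATG4C, ATG7 (the enzyme that activates LC3) and ATG12 (which is joined to ATG5) lay between -0.05 and 0.06 and were not called.

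ATG10, which joins ATG12 to ATG5, was the lowest of the 10 enzymes in level per length. It measured 5.55, 6.48 and 6.35 CPM in vehicle control and 5.57, 2.83 and 3.81 CPM with P4, from 29 to 88 counts per library. The groups overlapped by a little, at 5.55 CPM (vehicle control replicate 1) and 5.57 CPM (P4 replicate 1), and the log2 fold change was -0.64 ± 0.23 (SE, adjusted p = 0.030, edgeR). Its call was lost in 6 of 13 alternative fits. ATG10 also shares exon bases on the opposite strand with RPS23, a ribosomal protein gene with a mean of 4086 counts beside 83.4 for ATG10, and the strand setting of the counting is not stated.

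LC3 and GABARAP proteins are the small ubiquitin-like tags of the autophagosome membrane. MAP1LC3B (ENSG00000140941.13, GRCh38 chr16:87383995-87404779, plus strand), which encodes the LC3B used as the standard marker of autophagosomes, stood at 30.6, 34.0 and 36.3 CPM in vehicle control and at 55.1, 73.6 and 65.9 CPM with P4. The groups did not overlap, and the log2 fold change was 0.92 ± 0.11 (SE, adjusted p = 1.8e-05, edgeR). GABARAPL1 measured 30.1, 31.8 and 31.4 CPM and 36.7, 52.6 and 47.7 CPM, also apart, with a log2 fold change of 0.54 ± 0.12 (SE, adjusted p = 0.0020, edgeR).

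The other 3 genes of the family were not called. GABARAPL2 measured 27.2, 27.0 and 25.0 CPM in vehicle control and 21.3, 23.3 and 24.9 CPM with P4, a log2 fold change of -0.19 ± 0.10 (SE, adjusted p = 0.11, edgeR). MAP1LC3A measured 2.49, 2.43 and 2.49 CPM and 2.69, 3.95 and 2.67 CPM (log2 fold change 0.31 ± 0.23 SE, adjusted p = 0.28, edgeR). GABARAP measured 2.11, 2.73 and 2.25 CPM and 3.46, 3.35 and 2.74 CPM (log2 fold change 0.37 ± 0.22 SE, adjusted p = 0.18, edgeR). MAP1LC3A and GABARAP rested on 11 to 46 counts in each of these libraries. Although none of these 3 genes was called, the groups did not overlap for any of them. The P4 cultures were higher for MAP1LC3A and GABARAP and lower for GABARAPL2. Groups lay apart in this way for 30.7% (higher) and 29.6% (lower) of all genes tested. GABARAP shares 30.5% of its exon bases with a gene on the same strand, and ATG9A, described above, shares 38.8%. By default featureCounts drops reads that fall on more than 1 gene, so the levels of both are uncertain.

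Per length, as RPKM (CPM per kilobase of exon), the order within this family differed between the groups. GABARAPL2 supplied 40.03% ± 0.74 (SD, n = 3) of the summed RPKM of the 5 genes in control, 34.7% ± 1.97 in vehicle control and 22.5% ± 2.03 with P4. MAP1LC3B supplied 14.9% ± 1.94, 25.2% ± 1.78 and 35.7% ± 0.59 in the same groups. With P4 the shares of MAP1LC3B (35.3% to 36.3% across cultures) lay above those of GABARAPL1 (30.5% to 33.8%) and GABARAPL2 (20.2% to 23.9%) in all 3 cultures. These shares add to 100% and so do not move independently of each other. The uncertain level of GABARAP enters all 5 shares.

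**Figure D3:**
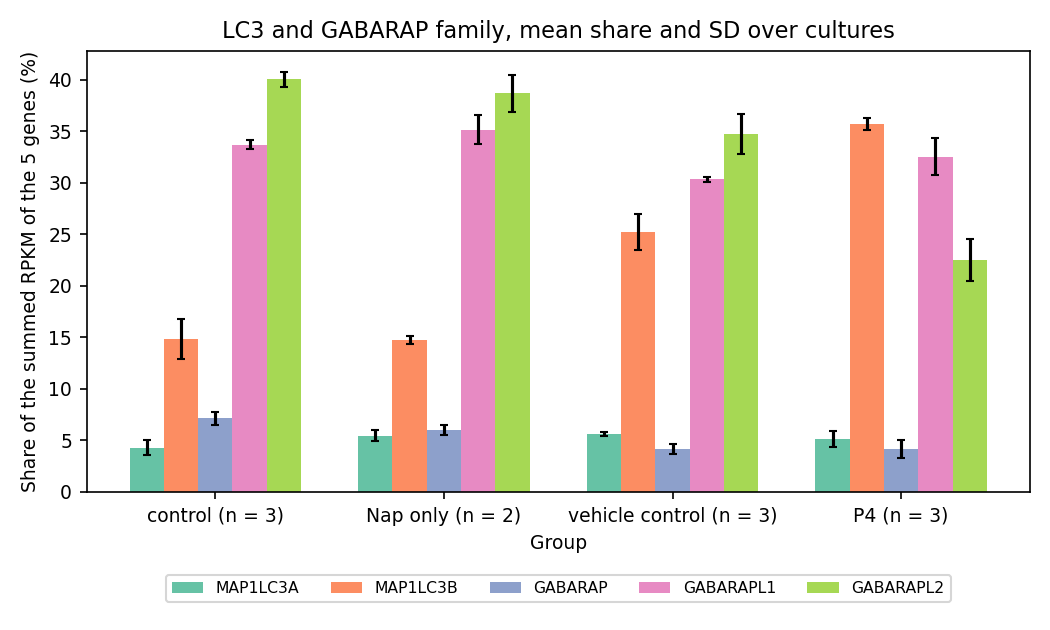
Bars show the mean share (percent, axis from 0) of each of the 5 LC3 and GABARAP genes in their summed RPKM for the control, Nap only, vehicle control and P4 groups, with the SD over cultures as error bars. MAP1LC3B stood at 14.9% in control, 25.2% in vehicle control and 35.7% with P4, while GABARAPL2 stood at 40.03%, 34.7% and 22.5%.

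STX17, which encodes the syntaxin that fuses autophagosomes with lysosomes, was not called (0.07 ± 0.09 SE on the log2 scale, adjusted p = 0.55, edgeR). The 15 members not called had log2 fold changes from -0.21 to 0.37, with standard errors from 0.07 to 0.23. P4 replicate 1 was the lowest of the 3 P4 cultures in 16 of the 22 members that rose, a count not made over all genes. Without that culture, 24 members were higher and 3 were lower, with PIK3R4 and WIPI2 added. Calls over all genes went from 8774 to 9953 in the same fit, so the gain was not particular to the members. Exons of 22 members overlap a gene on the opposite strand, among them SQSTM1 with MRNIP (a mean of 168 counts beside 3857 for SQSTM1), WIPI1 with ARSG (52.6 beside 245), OPTN with CCDC3 (714 beside 391), BECN1 with PSME3 (1024 beside 646) and ATG4D with KRI1 (406 beside 170). MAP1LC3B overlaps FBXO31 in this way (292 beside 430) over 2.82% of its exon bases. VMP1 overlaps PTRH2 (263 beside 1167) over 2.34% of its exon bases. Without strand, reads from the shared bases cannot be told apart.

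The level of each gene was compared per length. In vehicle control, SQSTM1 (24.3 ± 0.54 RPKM, SD, n = 3) and BNIP3L (22.5 ± 1.07) stood highest, followed by TAX1BP1 (16.5 ± 1.30), VMP1 (16.0 ± 1.18) and ATG101 (13.3 ± 0.57). TAX1BP1 and VMP1 did not differ beyond their spread. With P4, SQSTM1 reached 81.6 ± 18.9 RPKM and BNIP3L, the next, 29.5 ± 0.70. WIPI1 stood at rank 33 of 40 in vehicle control (2.90 ± 0.16 RPKM) and at rank 9 with P4 (12.6 ± 2.53), next to MAP1LC3B (12.2 ± 1.75), from which it did not differ beyond the spread. The lowest 3 genes in both groups were MAP1LC3A, ATG10 and GABARAP, all under 2 RPKM. The rank of GABARAP is uncertain, because reads on the exon bases it shares with another gene may have been dropped.

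**Figure D4:**
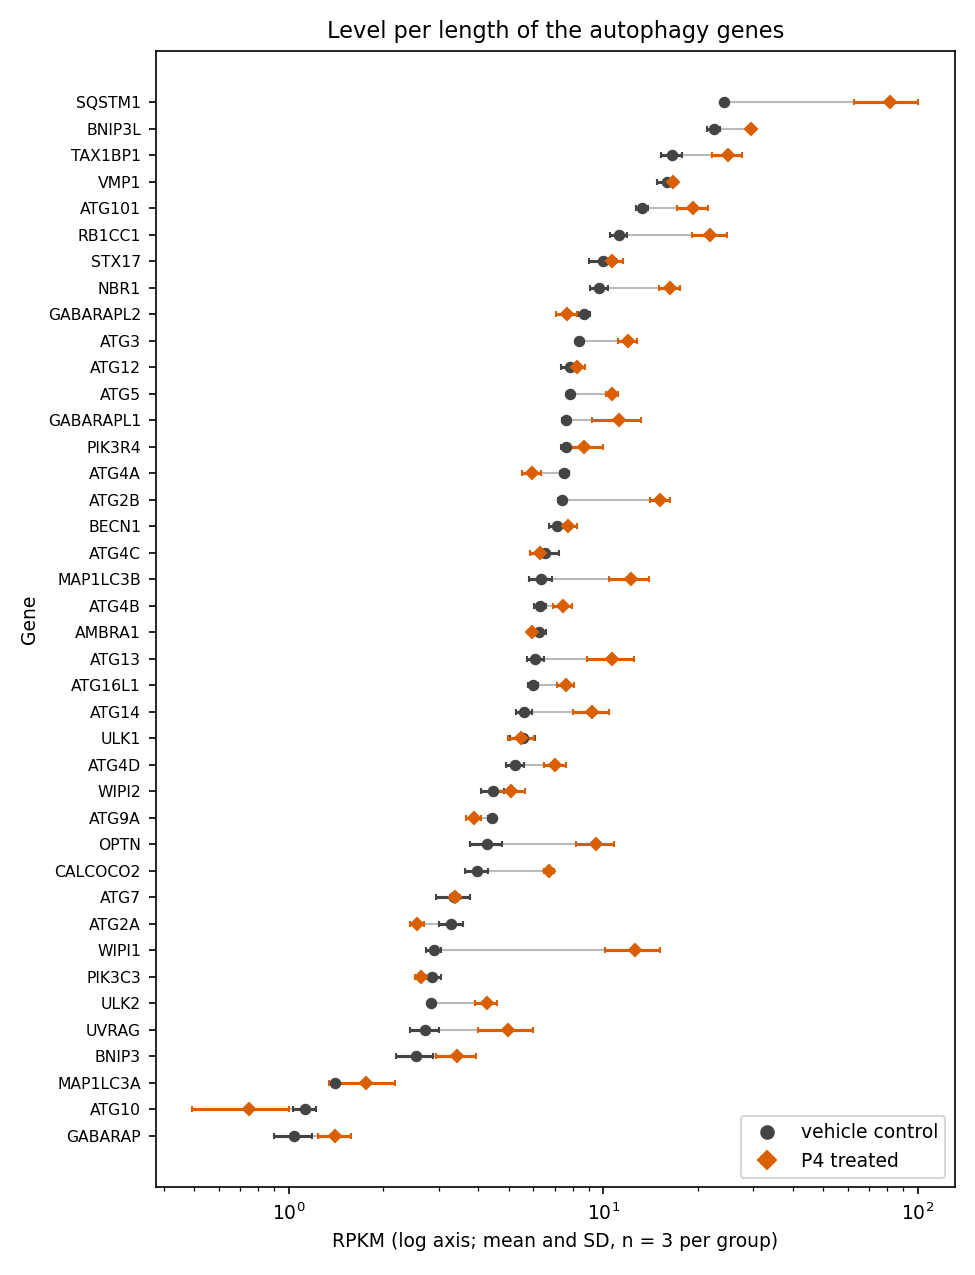
Mean RPKM (log axis) with SD is plotted for the 40 autophagy genes in vehicle control (circles) and P4 (diamonds), 3 cultures each, ordered by the vehicle control level. SQSTM1 is at the top in both groups (24.3 and 81.6 RPKM), and WIPI1 shows the longest connecting line relative to its level (2.90 to 12.6 RPKM).

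The comparison of vehicle control with control asked what the vehicle alone changed. It gave 4 calls among the 40 genes (edgeR's quasi-likelihood test), 3 higher and 1 lower, where 11.9% of 16673 genes were higher and 10.7% were lower, 22.6% in all. None of the 7 receptors was called in this fit, though BNIP3 or BNIP3L was in some alternatives given with their values further on. Without control replicate 2, which stood apart, 4 members were higher and 3 lower, with MAP1LC3A, ATG5 and BNIP3L added. Calls over all genes went from 3763 to 3995 in that fit. Groups did not overlap for 9 members that were higher and 9 that were lower in vehicle control, beside 19.4% and 19.6% of all genes. The member median log2 fold change was -0.04, beside -0.01 over all genes tested. This comparison shares the vehicle control cultures with the P4 comparison above, so the values of both are given side by side without a test of their likeness.

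MAP1LC3B measured 18.8, 17.5 and 15.7 CPM in the control cultures, below all 3 vehicle control cultures (30.6 to 36.3 CPM). Its log2 fold change for vehicle control over control was 0.96 ± 0.10 (SE, adjusted p = 7.0e-07, edgeR), beside 0.92 for P4 over vehicle control. Across the 3 groups no culture overlapped another group, and P4 over control came to 1.88 ± 0.12 on the log2 scale, or 3.68-fold (adjusted p = 7.6e-10, edgeR). The near-identical gene MAP1LC3B2 was 1.04 ± 0.32 higher on the log2 scale in vehicle control than in control (adjusted p = 0.022, edgeR), and reads that fit both genes were dropped by the authors' unique alignment.

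VMP1 (chr17:59707192-59842255) stood at 70.8, 66.1 and 72.3 CPM in control and 119, 109 and 103 CPM in vehicle control, a log2 fold change of 0.66 ± 0.08 (SE, adjusted p = 2.7e-06, edgeR). With P4 its values were 112, 116 and 117 CPM, above every control culture and within the range of the vehicle control cultures. ULK1 (chr12:131894651-131923167) likewise lay above every control culture in both other groups, with 26.4, 32.8 and 25.0 CPM in control and a log2 fold change of 0.57 ± 0.10 in vehicle control (SE, adjusted p = 0.00053, edgeR). ATG3, the 1 member that was lower, stood at 65.9, 62.6 and 66.5 CPM in control and 50.3 to 52.6 CPM in vehicle control (log2 fold change -0.35 ± 0.08 SE, adjusted p = 0.0025, edgeR). Its P4 cultures (69.0 to 79.1 CPM) were again above both, although P4 over control was not called for ATG3 (0.15 ± 0.09 SE on the log2 scale, adjusted p = 0.19, edgeR).

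BNIP3 and BNIP3L spread widely among the control and Nap only cultures. BNIP3 measured 16.9, 52.7 and 29.7 CPM in control replicates 1, 2 and 3 and 16.7 and 36.7 CPM in Nap only replicates 1 and 2. BNIP3L measured 107, 182 and 141 CPM and 111 and 174 CPM in the same cultures. Replicate 2 was the highest of its group for both genes in both groups, whereas the vehicle control cultures ran from 11.9 to 15.5 CPM for BNIP3 and from 92.1 to 101 CPM for BNIP3L.

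The log2 fold changes of vehicle control over control were -1.30 ± 0.54 for BNIP3 (SE, adjusted p = 0.17) and -0.56 ± 0.20 for BNIP3L (SE, adjusted p = 0.10), neither called in this fit although no vehicle control culture reached a control culture. DESeq2 called BNIP3 (-1.31, adjusted p = 0.038), and edgeR called BNIP3L without the filter on low counts (adjusted p = 4.0e-05) and with a replicate block (adjusted p = 0.00012). The values also depended on control replicate 1 and on control replicate 2, the library that stood apart. Without control replicate 1, BNIP3 came to -1.62 (adjusted p = 0.012) and BNIP3L to -0.73 (adjusted p = 5.9e-05), and without control replicate 2 they came to -0.76 (adjusted p = 0.15) and -0.34 (adjusted p = 0.0034). For P4 over control the values were -0.88 ± 0.48 and -0.19 ± 0.15 (SE), neither called (adjusted p = 0.19 and 0.28, edgeR).

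P4 against control, in which hormone and vehicle cannot be told apart, gave 21 members higher and 3 lower (edgeR's quasi-likelihood test), beside 26.8% and 28.0% of 16620 genes. The calls included all 5 initiation kinase genes, since ULK1 was 0.55 ± 0.12 higher on the log2 scale (SE), and VMP1 at 0.70 ± 0.09. MAP1LC3A was called here at 0.85 ± 0.27 (SE, adjusted p = 0.012, edgeR), from 1.29, 2.13 and 1.63 CPM in control, but not without P4 replicate 2 (0.64, adjusted p = 0.071) or without control replicate 1 (0.67, adjusted p = 0.069). Of the 24 calls, 5 were lost in some of the 13 alternative fits, with ATG16L1 lost in 8 and ATG2A in 6, both including DESeq2. Without control replicate 2, 20 members were higher and 2 lower, and calls over all genes went from 9112 to 8326. Of the receptors, 5 of 7 were called, without BNIP3 and BNIP3L. The log2 fold changes were 1.75 for SQSTM1, 1.93 for WIPI1 and 1.03 for OPTN, beside 1.73, 2.10 and 1.11 over vehicle control. Control and vehicle control values overlapped for SQSTM1 and OPTN, while WIPI1 was slightly higher in control, at 10.8 to 11.6 CPM.

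The Nap only cultures allowed the vehicle control, titled Nap with EtOH, to be set against Nap without ethanol. Here 4 members were higher and 2 were lower in vehicle control (edgeR's quasi-likelihood test), beside 12.7% and 11.2% of 16935 genes. The 4 were MAP1LC3B, with 16.4 and 17.4 CPM in Nap only and a log2 fold change of 1.01 ± 0.10, VMP1 (0.70 ± 0.08, from 74.5 and 60.6 CPM), ULK1 (0.52 ± 0.12, from 23.9 and 33.9 CPM) and ATG101 (0.26 ± 0.08). ATG3 fell by 0.31 and ATG5 fell by 0.22 on the log2 scale. The ATG101 and ATG5 calls were lost in alternative fits, and the ULK1 value came to 0.29 without Nap only replicate 1 and 0.78 without Nap only replicate 2, called in both.

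Nap only against control gave no call among the 40 members and none among 17166 genes (edgeR's quasi-likelihood test), that is 0.00% called. At an unadjusted p under 0.05 there were 217 genes (1.26%), none of them a member, and DESeq2 called 1 gene. The members' log2 fold changes ran from -0.30 (BNIP3) to 0.29 (MAP1LC3A), with 37 of 40 within 0.25 of 0. With 2 Nap only cultures, this does not show that the groups were alike.

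**Figure D5:**
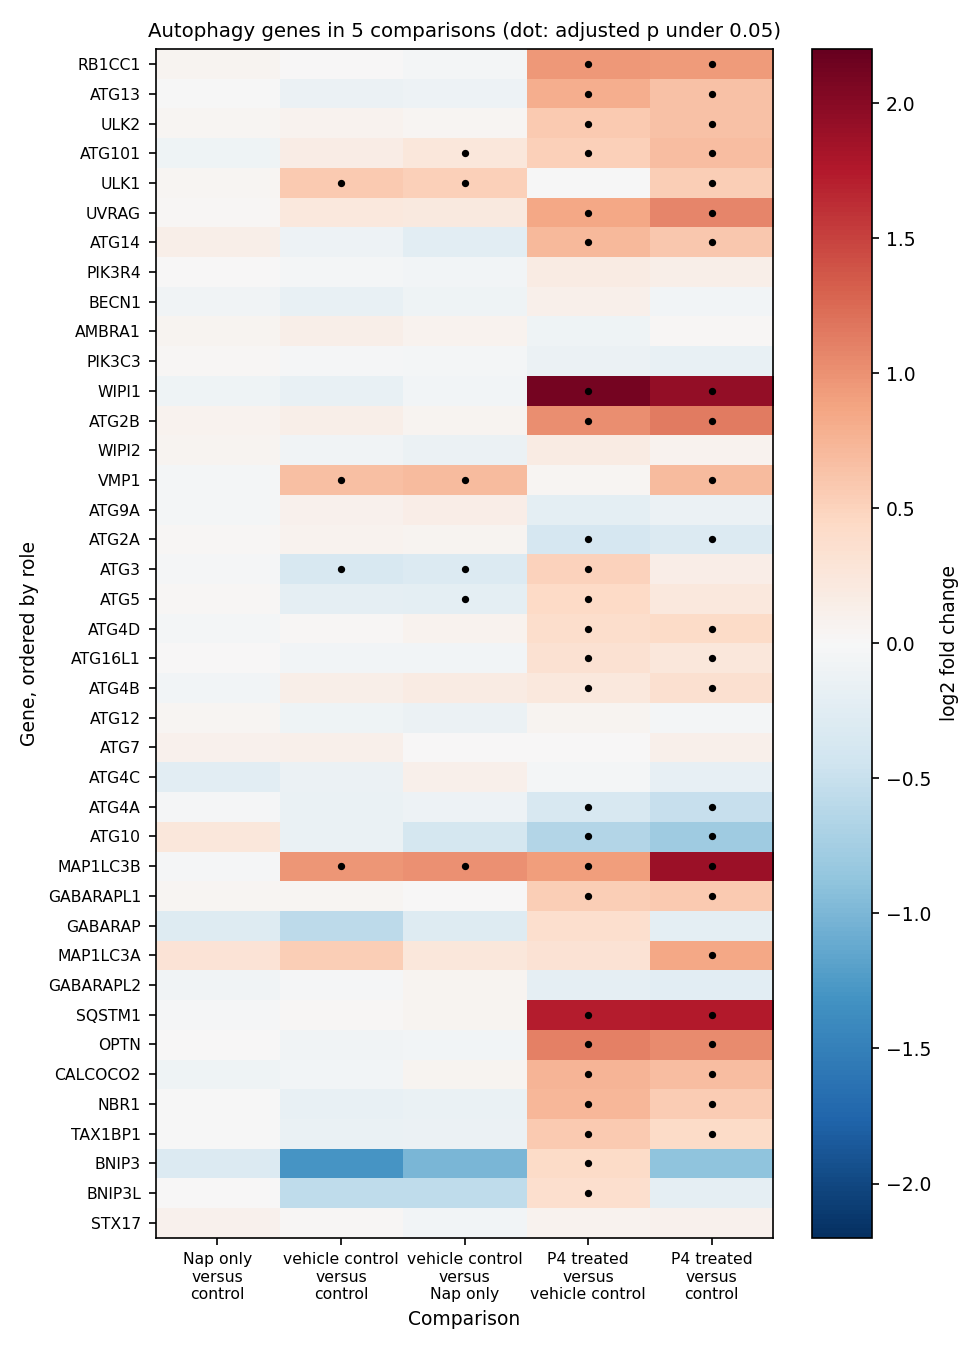
Colour gives the log2 fold change (red higher, blue lower in the first-named group) of the 40 autophagy genes, ordered by role, in 5 comparisons that share cultures, and a dot marks an adjusted p under 0.05. The Nap only column holds no dot, the vehicle control columns hold 4 and 6, and the P4 columns hold 25 and 24, with MAP1LC3B dotted in 4 columns.

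Further genes of the pathway, from lists that were also chosen by symbol, were counted in the same fits. Of 23 upstream regulators, 15 were higher and 3 lower with P4 than in vehicle control, beside 26.6% and 26.5% of all genes. Their median log2 fold change was 0.48. The 3 called genes with the largest changes were SESN2, a stress-induced inhibitor of mTORC1 signalling (log2 fold change 2.03 ± 0.08 SE, adjusted p = 2.0e-09, edgeR), DDIT4, another such inhibitor (1.69 ± 0.10, adjusted p = 9.5e-08), and MITF, a transcription factor of the TFEB family (1.06 ± 0.11, adjusted p = 8.8e-06). Of 26 other machinery and receptor genes, 12 were higher and 4 lower, with a median log2 fold change of 0.15, led by CCPG1, a receptor for the endoplasmic reticulum (1.90 ± 0.10), TMEM41B, a scramblase that works with VMP1 (1.12 ± 0.07), and NRBF2, a subunit of the ATG14 complex (0.87 ± 0.14). In vehicle control over control, 6 were higher and 2 lower in each list, beside 11.9% and 10.7% of all genes, with median log2 fold changes of 0.14 and 0.00 for the regulators and the other list. The largest changes among the called regulators were those of FOXO1, a transcription factor (log2 fold change 0.75 ± 0.12 SE), PRKAG1, a subunit of the energy sensor AMPK (-0.41 ± 0.07), and TFE3, of the TFEB family (0.32 ± 0.10). DDIT4 was not called here (-0.35 ± 0.13, adjusted p = 0.076, edgeR). Among the called genes of the other list the largest were those of RUBCN, an inhibitor of the UVRAG complex (0.52 ± 0.08), NCOA4, the receptor for ferritin (-0.43 ± 0.08), and ATG16L2, a relative of ATG16L1 (0.43 ± 0.13).

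Promoter sequence was available from RefSeq (GRCh38.p14, 250 bases before to 50 after the start of each gene) for 34 of the 40 members. The letters CACGTG, the core that TFEB family factors bind, were looked for on both strands, since a list of upstream regulators includes those factors. They occurred in 3 of 34 member promoters (8.82%) and in 7.43% of 27305 promoters, a share near the background. The 4 matches are shown 5′ to 3′ along the gene with the motif in capitals, as the only matches of the search.
ATG14, chr14:55411834-55411863, minus strand: aaaacaaaatccCACGTGactggctctcct
ATG3, chr3:112561963-112561992, minus strand: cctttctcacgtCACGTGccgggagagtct
ATG3, chr3:112561940-112561969, minus strand: agagtctagtgtCACGTGaggccccggtgg
BNIP3, chr10:131982040-131982069, minus strand: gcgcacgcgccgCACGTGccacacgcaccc
The motif began 21 bases before the annotated start in ATG14, 18 bases before and at base 6 after it in ATG3, and 134 bases before it in BNIP3. All 3 genes were among the 22 of 40 members called higher with P4 over vehicle control, at 0.72, 0.50 and 0.42 on the log2 scale. The BNIP3 call was lost in 5 of 13 alternative fits. ATG3 (0.15) and BNIP3 (-0.88) were not called in P4 over control. A link between the motif and these changes was not tested. The full CLEAR palindrome, which contains that core, TGATGNAA (the core of C/EBP-ATF sites) and the palindrome of progesterone and glucocorticoid receptors were also searched on both strands. They were in none of the 34 member promoters, and in 0.381%, 3.67% and 0.00366% of all promoters.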

How the data were processed

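The authors trimmed reads with cutadapt, mapped them uniquely with Subread, and deposited raw gene counts from featureCounts with GENCODE 31; tool versions and the strand setting are not given in the sources used here. Libraries were single-end TruSeq Stranded Total. Gene names and exon lengths came from GENCODE 29, with identifiers matched without their version (9 of 40 members had the same version).

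From the deposited counts, edgeR 4.0.16 (R 4.3.3) was run on the 2 groups compared, with TMM, a low-count filter (filterByExpr, minimum 10) and its robust quasi-likelihood test, adjusted by Benjamini-Hochberg over all genes tested. The SE given with an edgeR log2 fold change was derived from its test. It is the absolute log2 fold change divided by the square root of the F statistic. CPM was scaled by TMM over 17 libraries and RPKM divided it by exon length. Alternatives were DESeq2 1.42.0, other scalings, filters, a fit of all 4 groups, a replicate block and leaving out each culture. The labels call replicates biological and name no day or batch. The p-values therefore judge each difference against the spread between these cultures of 1 line. Whether that spread includes days or batches is not known.

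Members and lists were chosen with earlier results of these data known. Values in every culture were printed for members called in P4 over vehicle control or in vehicle control over control with an absolute log2 fold change of at least 0.5, and for the LC3, GABARAP and receptor genes. Of the further lists, the called genes with the 3 largest changes were to be named. PSAT1 libraries entered no test.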

Additional observations from a re-analysis of the deposited data

How the results depend on the processing

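Of the 25 member calls in P4 over vehicle control, 18 held in each of 13 alternative fits and 7 were lost in some (ATG10, ATG4B, BNIP3, ATG2A, ATG4A, ATG4D and BNIP3L); none turned its direction. Of the 24 calls in P4 over control, 19 held in every alternative and ATG16L1, ATG2A, MAP1LC3A, ATG4B and ATG4D were lost in some. The 4 calls in vehicle control over control held in every alternative. How many of the calls over all genes held in every alternative was not counted, so these member counts have no background beside them. The cause of the changes below was not tested. In P4 over vehicle control, members lower numbered 3, and came to 1 with DESeq2, 6 under upper-quartile scaling (20 higher, and 40.7% of all calls higher against 50.1%, with the median of all genes at -0.10) and 1 to 3 when each culture was left out, 1 without vehicle control replicate 2. Members higher ranged from 19 to 24 when each culture was left out, beside 7083 to 9953 calls over all genes. In vehicle control over control, members lower numbered 1, and came to 2 with DESeq2, 2 without the filter on low counts, 3 with the replicate block (BNIP3 added by DESeq2, BNIP3L without the filter, BNIP3L and GABARAP by the block) and 1 to 4 leaving out each culture (4 without control replicate 1, 3 without control replicate 2); calls over all genes went from 3763 to 1908 to 3995 in those fits, 2038 without vehicle control replicate 2 and 1908 without replicate 3. In vehicle control over Nap only, 4034 genes became 2130 with DESeq2, 1912 with all 4 groups and 2355 to 3803 leaving out each culture (2355 and 2471 without vehicle control replicates 2 and 3). Members lower there, 2, became 1 with DESeq2, 1 with all 4 groups and 1 to 4 leaving out each culture, 1 without vehicle control replicate 2 or 3 and 4 without Nap only replicate 1. In Nap only against control, 0 genes became 1 with DESeq2, 3 without the filter, 1 with all 4 groups, 42 with the replicate block and 0 to 5 leaving out each culture; no member was called in any of these.

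With the replicate block, P4 over vehicle control gave 8934 genes and 25 members. Same-numbered cultures did not deviate together in that comparison (correlations from -0.043 to 0.051), and the numbers were taken as names there. Nap only and control share only 2 numbers, whose deviations from their group means correlated at 0.307 and 0.351. With 2 Nap only cultures those deviations are opposites of each other, so the 2 values are not independent. They were not used as a pairing. In vehicle control over Nap only the block added BNIP3 (adjusted p from 0.23 to 5.0e-17) and BNIP3L (0.21 to 2.3e-12) as lower and lost ATG5 (edgeR). Vehicle control replicate 3 has no Nap only partner, so that fit leaves very little spread to estimate from. Its small p-values are therefore no measure of strength. In vehicle control over control the block did not call BNIP3 (adjusted p = 0.21, edgeR). Exon overlap on the opposite strand touched 22 of 40 members, and for 13 the overlapping gene had over 10% of the member's mean count, which limits single genes where the strand setting is unknown. At these depths MAP1LC3A and GABARAP rest on 11 to 83 counts per compared library.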

Other observations

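The 6 libraries that could not be placed in a group are given by the name of their count column and in no comparison. In the 3 libraries of the columns named PSAT1_P4, titled PSAT1, SQSTM1 measured 636, 732 and 664 CPM, WIPI1 36.8, 49.2 and 48.9 CPM and MAP1LC3B 64.8, 60.1 and 67.9 CPM. In the 3 libraries of the columns named PSAT1, titled PSAT1_P4, SQSTM1 measured 182, 184 and 191 CPM, WIPI1 12.3, 9.86 and 9.06 CPM and MAP1LC3B 17.8, 15.1 and 16.6 CPM. No share over all genes was computed for these columns, so the 2 sets are not set against each other. BNIP3, the mitochondrial receptor, measured 20.9, 17.02 and 18.8 CPM in the first set and 15.5, 38.5 and 21.3 CPM in the second, where replicate 2 was the highest, as it was in the control and Nap only cultures. BNIP3L measured 133, 134 and 127 CPM and 105, 150 and 116 CPM in the same order of columns. VMP1, the scramblase, measured 105, 107 and 111 CPM and 65.6, 62.9 and 67.0 CPM. ULK1, the initiating kinase, measured 39.4, 43.6 and 43.4 CPM and 26.8, 41.0 and 37.6 CPM.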
